A study of Mus musculus with 8 samples.

Results

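The genes described here encode the enzymes that cut extracellular matrix in cartilage and the proteins that hold them back: the matrix metalloproteinases (MMPs), the ADAMTS proteases, the tissue inhibitors of metalloproteinases (TIMPs) and Reck. They were named as a list of 39 genes. A gene counted as measured where the platform annotation mapped at least 1 probe set to it alone, and where several did, the brightest of them on average over the 8 arrays stood for it. By this rule 35 of the 39 genes were measured, out of 18193 genes measured in all. Mmp15, Adamts2, Adamts14 and Adamts17 had no such probe set and were not analysed here.

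The samples were primary rib chondrocytes, the cartilage-forming cells, of FVB mouse embryos, age E18.5. Rib cages were digested with collagenase and trypsin and the cells were strained before RNA was taken, so the extracts can hold RNA of every cell type that leaves the tissue in a digest. Control samples came from embryos labelled wild type (coded TA) and transgenic samples from embryos with a Hoxc8 transgene (coded TR), 4 samples of each. Embryos of a litter were put together by genotype, so each of 4 litters, called litters 1 to 4 here, gave 1 control and 1 transgenic sample; the number shared by a control and a transgenic sample in the labels was taken as the litter's. The sources used here give no promoter for the transgene, no number of embryos in a sample and no sexes.

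Matrix metalloproteinases are secreted or membrane-bound zinc proteases, made as inactive precursors and blocked in tissue by the TIMPs and, at the cell surface, by Reck. ADAMTS proteases are secreted relatives; one group cuts aggrecan and versican, another removes the amino-terminal propeptide of fibrillar procollagens, and Timp3 is the TIMP known to inhibit the aggrecanases. In growing cartilage Mmp13 and Mmp9 are known for clearing the matrix of the hypertrophic zone where bone will replace it.

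Values are MAS5 signals, a linear brightness per probe set that the authors scaled to a common target on each array (trimmed mean 500.0). The 8 array medians ran from 107 to 121. A signal depends on the probes as well as on the RNA, so signals are compared between samples of 1 gene and are not read as relative levels of different genes. Where the signals of a gene list are summed, the brightest probe sets weigh most, and the sums are compared between samples only. All 13 chondrocyte markers listed, among them Col2a1, Acan and Sox9, lay at 2981 or above on every array. Hoxc8 itself stood at 4112, 3066, 3755 and 3143 in the control samples of litters 1 to 4 and at 4096, 3399.96, 3810.4 and 4235 in the transgenic samples. The groups overlapped (log2 difference 0.15, SE 0.12), and the sources used here do not say whether the probes cover the transgene.

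Tests ran on log2(signal + 22.2), which understates fold changes of dim genes, over 22519 probe sets, those whose mean signal reached 110.03, the middle of all probe set means. Of the 35 measured members, 23 passed this filter and 12 did not. The 12 were Mmp3, Mmp7, Mmp8, Mmp10, Mmp11, Mmp12, Mmp19, Mmp24, Adamts7, Adamts8, Adamts18 and Adamts19. Mmp17 passed only through the control samples, since its transgenic mean was 102 ± 9.93 (SD, n = 4).

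No member passed the test between genotypes. By limma 0 of 23 tested members passed an adjusted p of 0.05, and 0 had an unadjusted p under 0.05, where 0.91% of the 10989 genes tested and 1.09% of all probe sets did. Over all 22519 probe sets 0 passed (0%). With litter as a block in the model 0 members passed and 2, Adamts9 and Adamts10, had an unadjusted p under 0.05, against 3.08% of genes and 3.34% of probe sets. An unmoderated equal-variance test gave 0 members at an unadjusted p under 0.05, against 1.71% of probe sets. Differences were positive for 9 members and negative for 14, where 50.7% of genes were positive, and the median was -0.02 log2, beside 0.00 over all genes tested. For 22 of the 23 members, each by the probe set that stood for it, the 95% interval stayed short of 2-fold both ways. That of Mmp13 reached 2.12-fold. The other probe sets of a gene are not covered by this count.

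**Figure D1:**
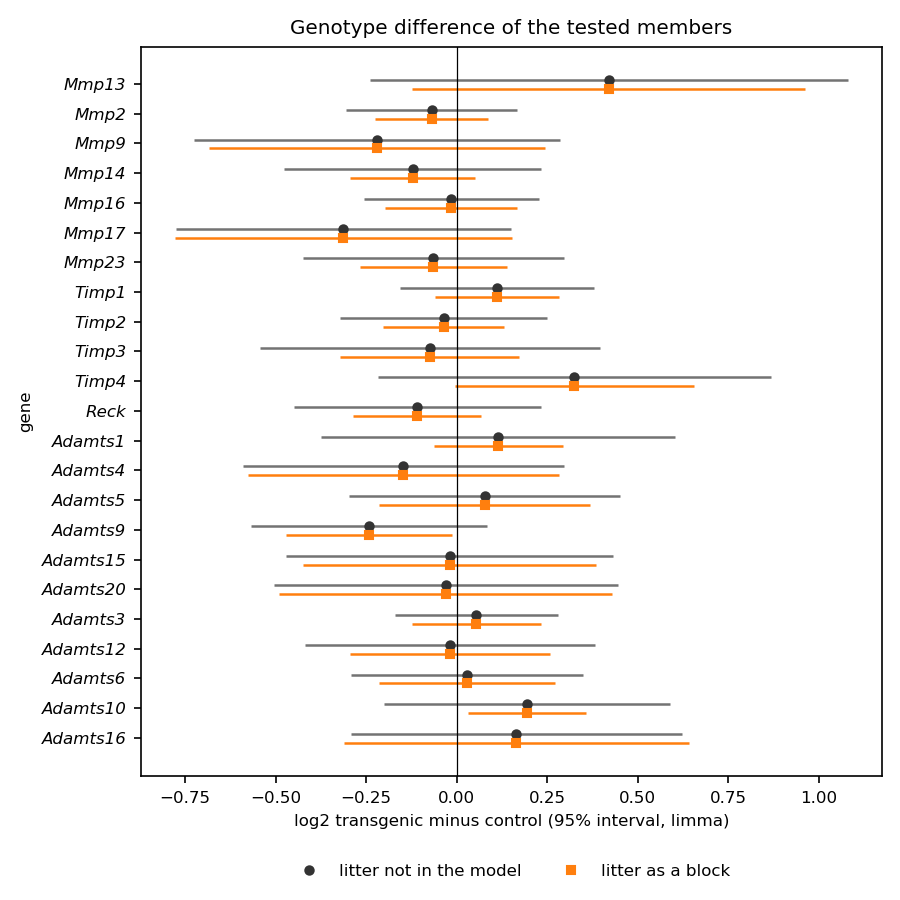
Log2 difference of transgenic minus control samples for the 23 tested members, with 95% intervals from limma without litter in the model (grey) and with litter as a block (orange), 4 samples per genotype. All 23 grey intervals include 0, and with the block those of Adamts9 and Adamts10 do not, before adjustment over all probe sets.

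Of the collagenases, which cut triple-helical fibrillar collagen, Mmp13 stood at 73.1, 154, 173.5 and 124 in control samples of litters 1 to 4 and at 169, 330.2, 146 and 113 in transgenic samples. The transgenic sample was higher in litters 1 and 2 and lower in litters 3 and 4, and the groups overlapped. The means were 131 ± 43.7 and 189.6 ± 96.6 (SD, n = 4), and the log2 difference was 0.42 (SE 0.31, 95% interval -0.24 to 1.08). Of 7 hypertrophic chondrocyte markers beside it, all tested, 0 passed between genotypes, and their summed signal lay between 14709 and 19147 in control and between 15788 and 18309 in transgenic samples. Mmp8, the collagenase stored in neutrophil granules, lay under the filter, with 132, 79.8, 67.8 and 182 in control and 86.5, 35.9, 42.5 and 97.4 in transgenic samples. It was lower in the transgenic sample of all 4 litters, at 0.45 to 0.657 of its control, though the ranges of the groups overlapped. In a fit without the filter its difference was -0.64 log2 (SE 0.35; limma, unadjusted p = 0.0926, and 0.0377 with litter as a block, adjusted p = 0.9999 and 0.9994). Of the 12 members under the filter, 1, Mmp8, had an unadjusted p under 0.05 in that block fit, against 3.08% of all genes tested. The sign was the same in all 4 litters for 4 of the 35 measured members, where 10.7% of all genes tested did so.

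Of the gelatinases, which cut denatured collagen, Mmp2 stood at 8141, 8428, 9005 and 7607 in control and 8994, 7993, 8226 and 6556 in transgenic samples, the lowest value being in the transgenic sample of litter 4. Its difference was -0.07 log2 (SE 0.11). Mmp9, made by osteoclasts, neutrophils and late hypertrophic chondrocytes, stood at 125, 259, 239 and 136 in control and 142, 139, 167 and 163 in transgenic samples. The control samples of litters 2 and 3 were the high ones, the other 6 lay between 125 and 167, and the difference was -0.22 log2 (SE 0.23).

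The membrane-anchored enzymes include Mmp14, which cuts collagen at the cell surface and activates the Mmp2 precursor. Mmp14 stood at 3254, 2696, 3989.6 and 2756 in control and 3504, 2478, 3429.8 and 2305 in transgenic samples (log2 difference -0.12, SE 0.16). Both samples of litters 1 and 3 lay above both samples of litters 2 and 4. Mmp16, another membrane-type MMP of mesenchymal tissue, lay between 2712 and 3544 (-0.02 log2, SE 0.11), and its 3 other probe sets stood above 0, at 0.01, 0.01 and 0.17. Mmp17, which is held by a lipid anchor, stood at 118, 101, 147 and 167 in control and 108, 86.8, 105 and 107 in transgenic samples. It was lower in the transgenic sample of all 4 litters, with a difference of -0.31 log2 (SE 0.21, 95% interval -0.78 to 0.15). Mmp23, made as a membrane-bound precursor, stood at 1148, 752, 1162 and 1012 in control and 1084, 792, 1159 and 848 in transgenic samples (-0.07 log2, SE 0.17), and its second probe set stood at 0.11 log2. Mmp24, a membrane-type MMP of the nervous system, lay under the filter, with 98.5, 153, 95.8 and 147 in control and 131, 58.2, 46.1 and 72.5 in transgenic samples, higher in the transgenic sample of litter 1 and lower in the other 3. The other probe sets of Mmp24, also under the filter, went the opposite way. Their means were 77.3 and 17.4 in control and 99.8 and 19.6 in transgenic samples.

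The remaining MMPs all had mean signals under the filter. Mmp3, a stromelysin that cuts proteoglycans and activates other MMPs, stood at 47.5, 78.3, 44.2 and 87.5 in control and 58, 85.5, 40.8 and 45.7 in transgenic samples. Mmp10, the second stromelysin, stood at 67.2, 8.95, 7.03 and 49.4 in control and 17.2, 19.2, 8.74 and 5.96 in transgenic samples. The highest Mmp10 signals were those of the control samples of litters 1 and 4. Mmp11, which is released by stromal cells, stood at 94.6, 97.5, 106 and 149 in control and 93, 111, 99.2 and 55.9 in transgenic samples. Mmp7, matrilysin of epithelia, stood at 39.8, 8.19, 19.8 and 18.4 in control and 63.4, 21.5, 16.2 and 26.5 in transgenic samples, and Mmp12, the elastase of macrophages, at 5.15, 7.57, 2.91 and 8.37 in control and 8.31, 1.72, 5.3 and 12 in transgenic samples. Mmp19 stood at 44.9, 72.2, 69.7 and 45.2 in control and 48.6, 53.6, 12.4 and 52.4 in transgenic samples. In each of these 6 genes the groups overlapped. No detection calls entered these values, so how far such signals differ from unspecific binding is unknown. Macrophage markers, 6 of 9 above the filter, summed to between 1429 and 2103 in control and between 1264 and 2015 in transgenic samples.

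Mmp13, Mmp12, Mmp3, Mmp10, Mmp8 and Mmp7 lie in 1 cluster on mouse chromosome 9. Fos and Jun proteins pair as AP-1, which is known to switch on several genes of this cluster. The last 100 bases before the RefSeq transcription start (build GRCm38.p6, plus strand of chromosome 9) are shown because they set the genes of 1 cluster side by side, with the AP-1 motif TGANTCA in capitals. Mmp7 and Mmp12 have 2 starts in RefSeq, and the start with the motif is shown.
Mmp13, chr9:7272414-7272513: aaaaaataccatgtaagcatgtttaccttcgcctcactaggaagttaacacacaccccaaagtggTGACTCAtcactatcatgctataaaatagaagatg
Mmp12, chr9:7347274-7347373: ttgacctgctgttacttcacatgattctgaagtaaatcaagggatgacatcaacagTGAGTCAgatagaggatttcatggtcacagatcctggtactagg
Mmp3, chr9:7445722-7445821: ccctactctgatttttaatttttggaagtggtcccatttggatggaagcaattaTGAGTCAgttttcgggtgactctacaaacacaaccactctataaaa
Mmp10, chr9:7502242-7502341: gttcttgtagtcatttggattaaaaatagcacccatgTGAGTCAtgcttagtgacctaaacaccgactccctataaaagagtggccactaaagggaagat
Mmp8, chr9:7558329-7558428: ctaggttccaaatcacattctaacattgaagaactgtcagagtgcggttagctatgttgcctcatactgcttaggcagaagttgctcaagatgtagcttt
Mmp7, chr9:7691990-7692089: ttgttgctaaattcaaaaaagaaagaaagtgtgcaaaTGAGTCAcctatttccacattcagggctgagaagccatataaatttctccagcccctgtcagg

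The motif, which reads TGANTCA on both strands, was found in the 250 bases before a start of 5 of the 25 members with a RefSeq promoter, and in 6.75% of 32851 promoters of the same length. All 5 lie in this cluster, 35 to 63 bases before the start, and Mmp8 is the gene shown without a match. Of these 5 genes, Mmp13 was the one above the signal filter. Motifs of RUNX factors (TGTGGT, either strand) were found in 4 of the 25, Mmp13, Mmp14, Mmp23 and Mmp7, and in 14% of all promoters. The homeodomain core TAAT (either strand) was found in 10 of the 25 and in 54.9% of all promoters. A member counted where any of its starts matched, while the 32851 promoters were counted singly, so the shares are not of like units. The other starts of Mmp12 and Mmp7 had no AP-1 match. A match is a description of letters and not a site of binding.

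Among the inhibitors, Timp1, a secreted inhibitor of most MMPs, stood at 5021, 4823, 4582 and 6355 in control and 5755, 4680.1, 5773 and 6175 in transgenic samples, with litter 4 high in both genotypes (0.11 log2, SE 0.12). Timp2, which also takes part in the activation of the Mmp2 precursor by Mmp14, stood at 5984, 5673, 6951 and 5956 in control and 6365, 5249, 7606 and 5003 in transgenic samples (-0.04 log2, SE 0.13). Both Timp2 samples of litter 3 lay above the other 6. Its other tested probe sets lay between -0.33 (SE 0.17) and -0.01 log2 (SE 0.15). Timp3, which binds to the matrix, stood at 559, 1040.5, 874 and 599.95 in control and 592, 1038, 632 and 634 in transgenic samples (-0.08 log2, SE 0.22). Both samples of litter 2 were above all others. The other probe sets of Timp3 stood at -0.02, -0.11 and -0.49 log2 (SE 0.20, 0.27 and 0.32). Timp4 stood at 291, 327, 152 and 295 in control and 351, 490.5, 234 and 280.5 in transgenic samples, higher in the transgenic sample of 3 litters (0.32 log2, SE 0.25; 0.15 with litter as a block, limma unadjusted p = 0.0534, adjusted p = 0.9998). Its second probe set stood at -0.10 log2. Reck, a membrane-anchored inhibitor of several MMPs, stood at 3741, 3159.9, 4199.5 and 3247 in control and 3430.1, 3065, 4447 and 2539.9 in transgenic samples (-0.11 log2, SE 0.16), with litter 3 highest in both genotypes.

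The ADAMTS proteoglycanases cut aggrecan and versican. Adamts1 stood at 1816, 2501, 1867 and 1326 in control and 2171, 2825, 1995 and 1263 in transgenic samples, in both genotypes highest in litter 2 and lowest in litter 4 (0.11 log2, SE 0.23). For Adamts4 and Adamts5, the main aggrecanases of cartilage, no difference between genotypes passed. Adamts4 stood at 237, 381, 281 and 279.8 in control and 273, 194, 374 and 229 in transgenic samples (-0.15 log2, SE 0.20). Litter 2 held both its highest and its lowest sample. Adamts5 stood at 629, 507, 949 and 694 in control and 790.3, 709.9, 767 and 609.9 in transgenic samples (0.08 log2, SE 0.17), and 1 of its 3 tested probe sets had the opposite sign. Adamts1 and Adamts5 lie near each other on chromosome 16.

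Adamts9, which cuts versican and aggrecan, stood at 641, 524, 719.8 and 529 in control and 509, 474, 614 and 429 in transgenic samples. It was lower in the transgenic sample of every litter, at 0.794, 0.904, 0.853 and 0.811 of the control, while the groups overlapped. The difference of -0.24 log2 had an SE of 0.15, and 0.10 with litter as a block (limma, unadjusted p = 0.0389, adjusted p = 0.9998). Of its 2 other tested probe sets, 1 stood at -0.15 and 1 at 0.12 log2. Adamts15, another aggrecanase, stood at 212, 193, 223 and 184 in control and 204, 283, 209.5 and 129 in transgenic samples (-0.02 log2, SE 0.21), and Adamts20, which cuts versican, at 170.2, 144, 199 and 158 in control and 104, 221, 183 and 164 in transgenic samples (-0.03 log2, SE 0.22). In both the lowest and the highest sample were transgenic. Adamts8 lay under the filter, at 124, 84.2, 84.8 and 116 in control and 138, 100.2, 118 and 98.7 in transgenic samples.

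Of the procollagen N-proteinases, Adamts3, which processes type II procollagen, had a probe set, with 3559.8, 3448, 3543 and 2924 in control and 3444, 3201, 3693 and 3633 in transgenic samples, the control sample of litter 4 being the low one. Its difference was 0.05 log2 (SE 0.10, 95% interval -0.17 to 0.28). Of the enzymes known to cut COMP, a cartilage matrix protein, Adamts12 stood at 811, 555, 1093 and 959 in control and 947, 713, 875 and 759 in transgenic samples (-0.02 log2, SE 0.19), the control samples spanning a wider range. Adamts7, under the filter, stood at 107, 104, 93.6 and 139 in control and 123, 59.1, 76.1 and 59.1 in transgenic samples.

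Adamts10, which is linked to fibrillin microfibrils, stood at 1789.5, 2398, 1330.3 and 1829.9 in control and 2109.5, 2627, 1557 and 2085 in transgenic samples. The transgenic sample was higher in each litter, at 1.18, 1.1, 1.17 and 1.14 of its control, though the groups overlapped, litter 3 being the low litter and litter 2 the high one in both. The difference was 0.19 log2 with an SE of 0.18, and 0.07 with litter as a block (limma, unadjusted p = 0.0235, adjusted p = 0.9998). A second, dimmer probe set of Adamts10 stood at 0.06 log2 (SE 0.39). Adamts6, related to Adamts10, stood at 519.6, 532, 432 and 465 in control and 521, 599.7, 389 and 495 in transgenic samples (0.03 log2, SE 0.15), with its other probe set at -0.14. Adamts16 stood at 132, 96.1, 159 and 155 in control and 167.7, 172, 159.8 and 116 in transgenic samples (0.16 log2, SE 0.21), and the control sample of litter 2 was its lowest. Under the filter, Adamts18 stood at 5.23, 55.4, 39.9 and 48.6 in control and 38, 8.56, 20.7 and 38.4 in transgenic samples, and Adamts19 at 11.2, 6.68, 9.67 and 1.51 in control and 7.32, 14.1, 24.1 and 7.49 in transgenic samples. The sign was the same in all 4 litters for Adamts9, Adamts10 and Mmp17, that is 3 of the 23 tested members, where 10.7% of genes did so. Mmp17 had passed the filter only through its control samples, which leaves 2 of the other 22, a share near that of all genes.

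**Figure D2:**
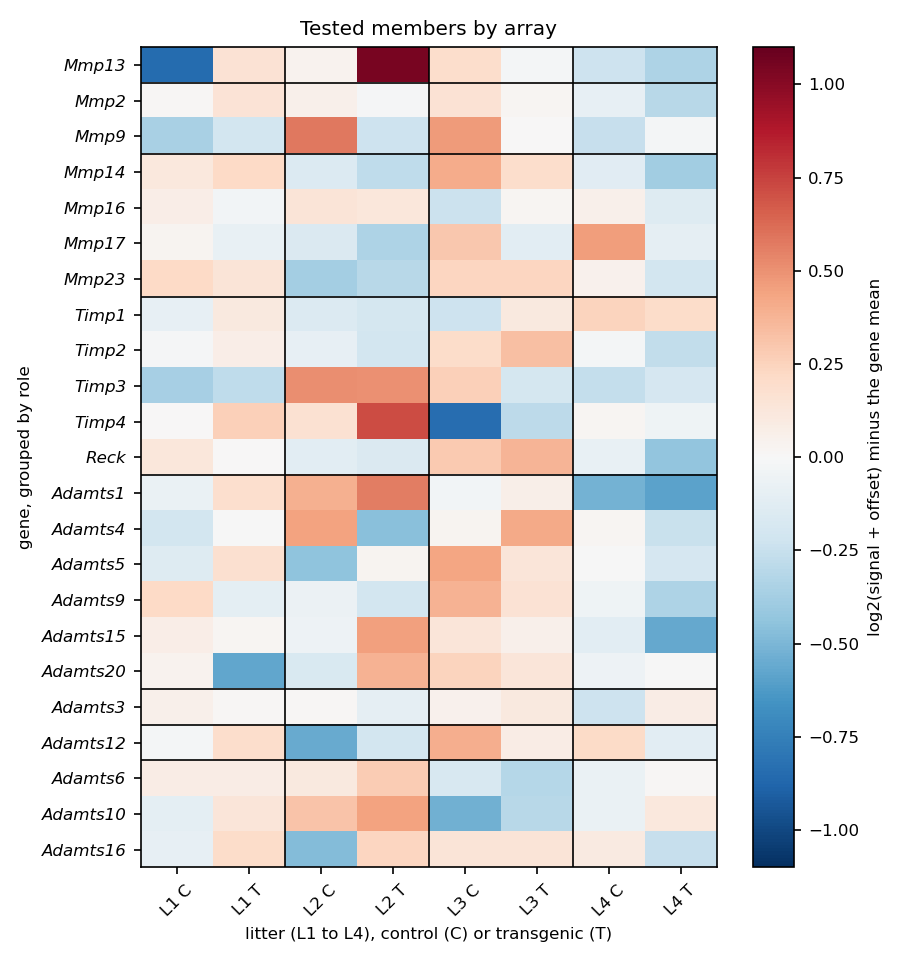
Log2(signal + 22.2) of the 23 tested members, minus each gene's mean over the 8 arrays, for control (C) and transgenic (T) samples side by side within litters 1 to 4; horizontal lines part the groups by role. The widest departure from a gene's mean is 1.04, for Mmp13 in the transgenic sample of litter 2. In some rows both samples of a litter lie above the mean, as in litter 2 for Adamts1 and Timp3 and in litter 3 for Reck. The samples of litter 3 lie on either side of the mean for Timp3.

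More members passed the test between litters than between genotypes. In limma's moderated F-test over the 4 litters, with genotype in the model, 7 of 23 tested members (30.4%) passed an adjusted p of 0.05, where 9.91% of all genes tested and 9% of probe sets did. An unadjusted p under 0.05 was seen for 11 members, against 29.9% of genes. Of the genes whose mean signal reached 492, 14.3% passed, as did 6 of the 15 members in that range. The calls rest on the moderated test with an intensity trend: without the trend 0 members passed, and an unmoderated F-test gave 0 members and 0% of genes. With 1 array left out the number of members lay between 1 and 8: it was 1 without control replicate 2, 2 without control replicate 3 or transgenic replicate 2, and 3 without transgenic replicate 3. With a litter left out it was 1 without litter 2 and 2 without litter 3. Each litter has 2 samples, and whatever else differed between litters, such as handling or the embryos taken, cannot be told apart from the litter.

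By the probe sets that stood for them, Mmp14, Mmp23 and Reck were higher in litters 1 and 3 than in litters 2 and 4. The litter means were 3379, 2587, 3709.7 and 2530.2 for Mmp14 (limma, adjusted p = 0.0174), 1116, 772, 1161 and 930.4 for Mmp23 (adjusted p = 0.0426) and 3585, 3112, 4323 and 2894 for Reck (adjusted p = 0.0258). The highest litter mean was 1.46, 1.49 and 1.5 times the lowest on the log2(signal + 22.2) scale. All 3 probe sets of Mmp14 were highest in litter 3 and lowest in litter 4, and 2 of them passed. The second probe set of Mmp23 had litter means of 1143, 789, 821 and 792. It was high in litter 1 alone, with litter 3 near litters 2 and 4, and did not pass. With the mean of all probe sets of a gene, Mmp23 did not pass either. Timp2, the partner of Mmp14, had litter means of 6175, 5461, 7278 and 5479.5 (adjusted p = 0.0642), and 3 of its 4 other tested probe sets passed, each highest in litter 3.

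Without litter 2, or without litter 3, neither Mmp14 nor Mmp23 nor Reck passed. The pathway and marker lists were read beside these genes. Of 10 perichondrium and fibroblast genes, all tested, 4 passed the litter test, where 9.91% of all genes tested and 14.3% of those whose mean signal reached 492 did. Of these 4, Thbs2, a matricellular thrombospondin, had litter means of 4883, 3440.1, 6555 and 3645, Pdgfra, a receptor of fibroblasts, 3440.4, 2873, 4211 and 3382, and Col1a1, a chain of type I collagen, 22063, 19550.4, 24965 and 15984, all highest in litter 3. The fourth, Col1a2, the other chain of type I collagen, had 37028, 38116, 36194 and 29079.8, highest in litter 2 and lowest in litter 4. Dcn, the decorin gene, which did not pass, had its highest mean in litter 4 and its lowest in litter 3, at 19609, 19417, 18978 and 21585. The summed signal of the list lay between 188370 and 210165 in control and between 171097 and 199961 in transgenic samples, and its part in the values of Mmp14, Mmp23 and Reck was not tested. In such bulk extracts fewer cells of a type and less RNA per cell cannot be told apart.

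Adamts1 and Adamts10 were highest in litter 2. For Adamts1 the litter means were 1994, 2663, 1931 and 1295, a 2.04-fold range (limma, adjusted p = 0.00192), and the test passed with any 1 array or any 1 litter left out. For Adamts10 they were 1949.5, 2512, 1444 and 1958, a 1.73-fold range (adjusted p = 0.00557). Its second probe set passed too, with litter means of 126, 197, 98.6 and 46.6. This probe set was also highest in litter 2, but lowest in litter 4, where the first was lowest in litter 3. With a mean signal of 117, the second probe set passed the signal filter only through litter 2. Its high value there is therefore no separate check of the first. The call of Adamts10 was lost without litter 2 or its control sample, and without litter 3 or its control sample.

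Timp3 and Timp4 were also highest in litter 2. The litter means of Timp3 were 575, 1039, 753 and 617 (adjusted p = 0.0228), and 2 of its 3 other probe sets passed, all highest in litter 2. Its call was lost without litter 2 or either sample of it. Those of Timp4 were 321, 409, 193 and 288 (adjusted p = 0.0471). Its second probe set was highest in litter 4 and did not pass, and the call held in 9 of 23 other fits, being lost under quantile normalization and median centring of the arrays among others.

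**Figure D3:**
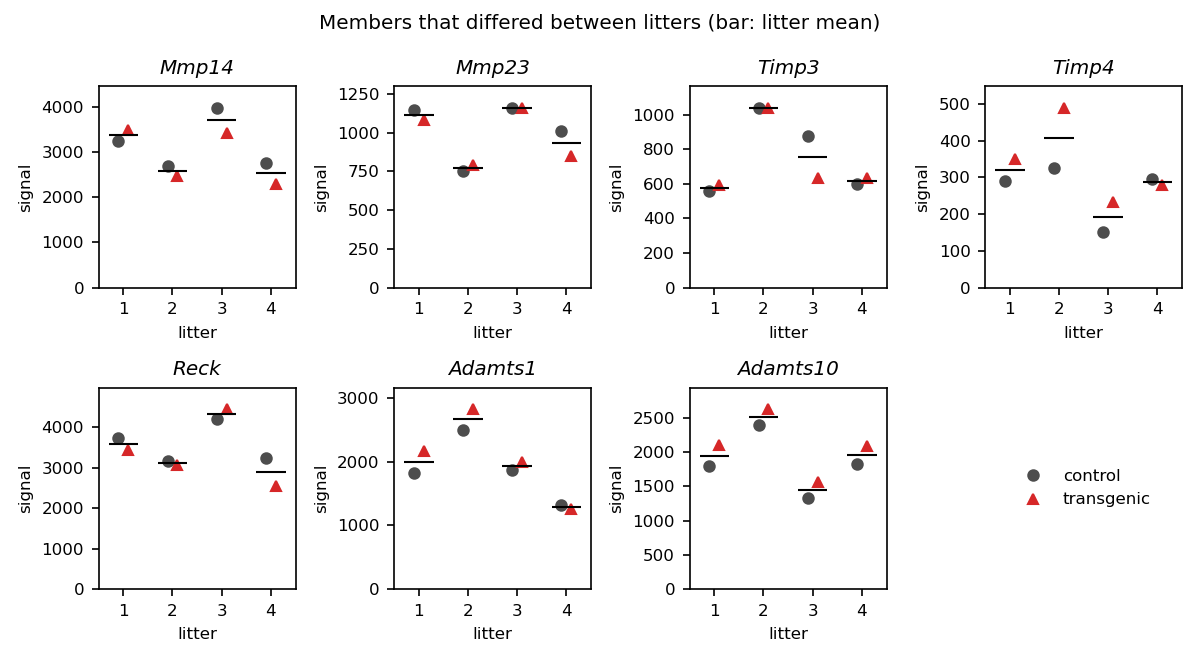
Signals of the 7 members that passed the litter test, by litter, with control samples as grey circles, transgenic samples as red triangles and the mean of both as a bar; the axes start at 0. Mmp14, Mmp23 and Reck are high in litters 1 and 3, and Adamts1, Adamts10, Timp3 and Timp4 are highest in litter 2.

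AP-1 subunit genes also differed between litters. Of the 6 Fos and Jun genes above the filter, 5 passed, all except Fosl2. Jun, with litter means of 26722, 33106, 24987 and 18626 (limma, adjusted p = 0.00192), and Jund, with 9705, 13544, 10270.4 and 6618 (adjusted p = 0.000443), were highest in litter 2 and lowest in litter 4, as Adamts1 was. So were Fos and Junb. Fosb departed from this, highest in litter 3 at 4209, 4523, 4629 and 2839, and Fosl2 was highest in litter 3 and lowest in litter 1. Of the 17 tested genes of the dissociation and inflammatory list, 14 passed. Over all genes tested 9.91% passed, and 14.3% of those whose mean signal reached 492. Atf3, a stress-induced factor, had litter means of 4308, 8040.4, 3604 and 2778. The summed signal of that list lay between 107707 and 190866 in control and between 112801 and 186427 in transgenic samples, highest in litter 2 and lowest in litter 4 in both, and its part in the values of Adamts1 was not tested. The 100 bases before the start of Adamts1, shown to set it against the cluster on chromosome 9, lie on the minus strand of chromosome 16. Neither they nor the 250 bases hold the AP-1 motif.
Adamts1, chr16:85803114-85803213: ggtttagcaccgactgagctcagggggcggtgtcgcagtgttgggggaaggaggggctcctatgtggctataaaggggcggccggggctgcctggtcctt

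Mmp8, under the filter, had litter means of 109, 57.9, 55.2 and 139.6 for litters 1 to 4 (limma without the filter, unadjusted p = 0.0443, adjusted p = 0.284). The neutrophil genes S100a8 and S100a9 also had litters 1 and 4 above litters 2 and 3. The litter means were 1417, 688, 1286 and 1914 for S100a8 (limma, adjusted p = 0.00489) and 1685, 733, 939 and 2114 for S100a9 (adjusted p = 0.000443). These genes stood at -0.37 and -0.42 log2 in transgenic against control samples, with unadjusted p of 0.0158 and 0.00172 with litter as a block and an adjusted p of 0.9998 each. Of the 8 neutrophil genes measured, 4 lay above the filter. With litter as a block, S100a8 and S100a9, chosen after their values were seen, were the 2 of these 4 with an unadjusted p under 0.05. Over all genes tested 3.08% had one. S100a8 and S100a9 passed the litter test and the other 2, Ngp and Lcn2, did not, where 9.91% of all genes tested passed. None of the 8 is at 0, and the lowest single signal was 4.21. The summed signal lay between 1957 and 5749 in control and between 1963 and 3782 in transgenic samples, and the part of neutrophils in the values of Mmp8 was not tested.

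**Figure D4:**
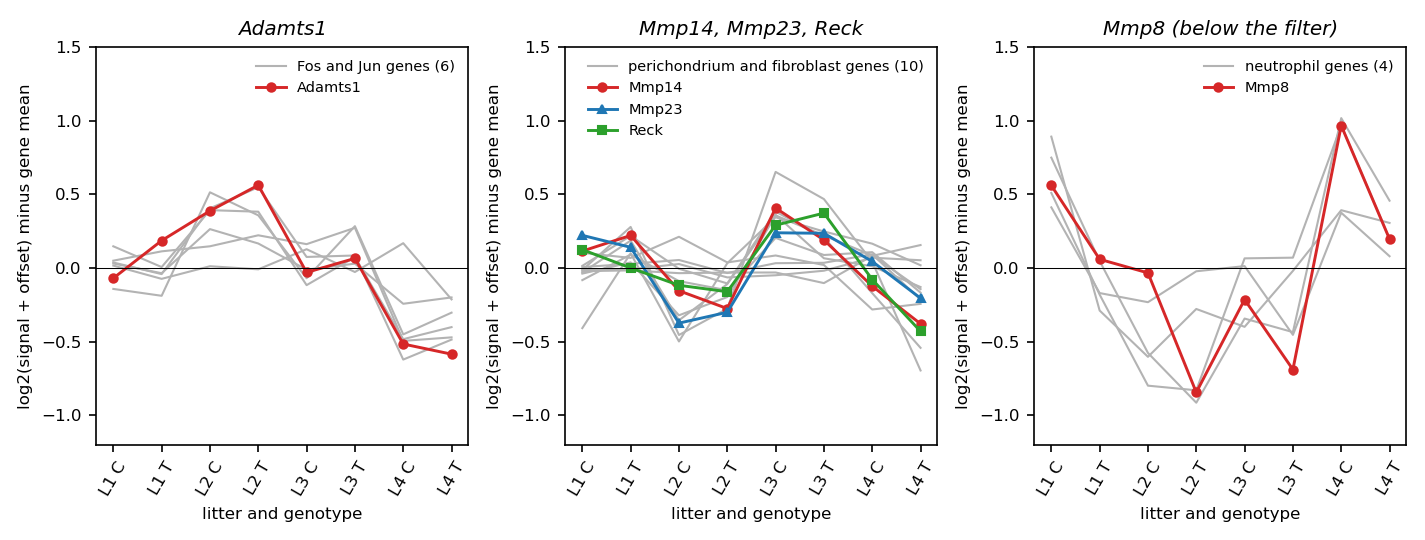
Log2(signal + 22.2) minus each gene's mean over the 8 arrays (vertical axis) for control (C) and transgenic (T) samples of litters 1 to 4 (horizontal axis): members in colour, beside 6 Fos and Jun genes, 10 perichondrium and fibroblast genes and 4 neutrophil genes in grey. Adamts1 lies above its mean in litter 2 and below it in litter 4, and Mmp8 is highest in the control samples of litters 1 and 4.

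Osteoclasts, a known source of Mmp9 and Mmp14, could also be in a digest. Of 8 osteoclast markers, Acp5, Ctsk and Calcr lay above the filter and 5 below it. Only 1, Ctsk, passed the litter test, while Acp5 and Calcr did not, and it was singled out after its values were seen. Ctsk, the collagen-cutting cathepsin of osteoclasts, had litter means of 1574, 1193, 2101 and 1542, highest in litter 3 like Mmp14, and Ocstamp and Dcstamp, needed for osteoclast fusion, reached at most 35.4 and 42.2. The summed list, of which Ctsk made up the larger part on every array, lay between 2246 and 3214 in control and between 1814 and 2902 in transgenic samples. Its part in the values of Mmp14 was not tested.

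Genes that act on the same proteases were described from a list of 65, of which 60 were measured and 53 tested. By limma 0 passed between genotypes, in either direction, and 1, Adam19, had an unadjusted p under 0.05, against 0.91% of all genes tested. With litter as a block 0 passed and 3, Adam19, Furin and Col2a1, had an unadjusted p under 0.05, against 3.08% of all genes tested. Of the differences, 24 lay above 0 and 29 below, where 50.7% of all genes tested lay above, and the median was -0.02 log2. Adam19, a membrane-bound relative of the ADAMTS proteases, stood at 416, 409, 513 and 465 in control and 396, 287, 385 and 335 in transgenic samples (-0.35 log2, SE 0.15, limma unadjusted p = 0.0331, adjusted p = 0.9999), lower in every litter. Adamtsl2, an ADAMTS-like protein without protease activity, stood at -0.36 log2 (SE 0.25). Furin, which cuts the precursors of Mmp14 and of ADAMTS proteases, stood at 1345, 917, 1165 and 972 in control and 1481, 1250.02, 1268 and 1267 in transgenic samples, higher in every litter (0.27 log2, SE 0.14, and with litter as a block 0.09, limma unadjusted p = 0.013, adjusted p = 0.9998). Bmp1, the procollagen C-proteinase, stood at 0.14 log2 (SE 0.11).

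Among the other pathway genes, Serpinh1, a collagen chaperone of the serpin family, stood at 0.02 and Plaur, the urokinase receptor, at -0.04 log2. The substrates Col2a1 and Col3a1, the fibrillar collagens of cartilage and of fibrous tissue, stood at -0.18 (SE 0.13) and -0.09 (SE 0.08), and the regulators Fosl2 and Ets2 at -0.16 and -0.12. Col2a1 was lower in the transgenic sample of every litter, at 0.879, 0.712, 0.966 and 0.999 of its control (SE 0.08 with litter as a block, limma unadjusted p = 0.0378, adjusted p = 0.9998). Over the 13 substrates tested 0 passed, and the median was -0.07 log2, from -0.18 to 0.03. Of the 13, 10 lay below 0, where 50.7% of all genes tested lay above it. The sign was the same in all 4 litters for 1 substrate, Col2a1, and for 6 of the 53 pathway genes, where 10.7% of genes did so.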

How the data were processed

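The 8 arrays (4 control, 4 transgenic, 1 of each per litter) were all used. The authors deposited 1 linear intensity value per probe set and array; MAS5 is named per the submitters' processing notes, with version and genome build not given in the sources used here. The 2% trimmed mean was 500.0 on every array, and no further normalization was applied. Of 45101 probe sets, 64 Affymetrix controls were left out, 34945 had 1 symbol in the platform annotation of 2016, 932 several and 9160 none.

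Signals plus an offset of 22.2 (their 20th percentile) were put on a log2 scale and fitted with limma version 3.58.1 (R version 4.3.3; lmFit, eBayes with trend, two-sided, Benjamini-Hochberg over all 22519 probe sets tested). The genotype fit leaves out the litter; litter as a block is given beside it. The labels tie replicate numbers to litters. With group means removed, the correlation of the 2 arrays of a litter was 0.03, 0.43, 0.38 and 0.38, in order of litter. The highest correlation of each control array with a transgenic array of another litter was 0.06, 0.01, 0.03 and 0.004. The values of litter 1 thus do not show its pairing, which rests on the labels. Steps were checked on simulated data. The 4 samples of a genotype came from 4 litters, and the control and transgenic sample of a litter are paired; embryos per sample are not stated.

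Members and gene lists were chosen with earlier results of these data known. Every measured member is given; of each pathway group the 2 genes with the smallest genotype p are named. Marker genes shown beside members (Thbs2, Pdgfra, Col1a1, Col1a2, Dcn, Jun, Jund, Atf3, S100a8, S100a9, Ctsk) were chosen after their values were seen. Promoters and starts are from RefSeq, GRCm38.p6; 25 members had one. The alternatives were other offsets, filters, scalings, variance models, probe set rules and each array or litter left out.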

Additional observations from a re-analysis of the deposited data

Results flagged for a closer look

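Single samples far from the rest of their genotype were looked for in the 35 measured members, in 70 groups of 4, with Dixon's 95% critical value; 3 were found, where chance gives about 4. Timp3 stood at 1038 in transgenic replicate 2, where the next was 634. Mmp17 stood at 86.8 in transgenic replicate 2, where the next was 105, and Mmp19, under the filter, at 12.4 in transgenic replicate 3, where the next was 48.6.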

How the results depend on the processing

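Between genotypes 0 members passed in any of 24 other fits. The paired fit, with the litter as a replicate block, gave 0 members and changed no call. Over the 23 members and 11 more genes named in the text there were 805 log2 differences. None of them (0) passed, and 61 changed sign, in 18 genes. These were Adamts20 under quantile normalization (0.00091), Mmp16 (0.0088), Adamts15 (0.0044) and Adamts12 (0.0054) under median centring, Timp2 (0.043), Timp3 (0.015), Adamts4 (0.041), Adamts12 (0.038), Adamts6 (-0.027) and Plaur (0.10) with array weights, and Mmp16 (0.043), Mmp23 (0.023), Adamts6 (-0.054) and Fosl2 (0.093) as the mean of all probe sets. With single arrays or litters left out, log2 differences also took the opposite sign, over these ranges: Mmp16 (-0.11 to 0.046), Adamts15 (-0.19 to 0.17), Timp3 (-0.26 to 0.082), Adamts5 (-0.057 to 0.23), Mmp23 (-0.20 to 0.024), Timp2 (-0.15 to 0.049), Adamts20 (-0.22 to 0.16), Adamts12 (-0.21 to 0.11), Adamts6 (-0.060 to 0.14), Adamts1 (-0.054 to 0.33), Adamts3 (-0.031 to 0.11), Mmp2 (-0.14 to 0.020), Reck (-0.25 to 0.016), Adamts4 (-0.33 to 0.10), Adamts16 (-0.019 to 0.34), Serpinh1 (-0.0041 to 0.042) and Plaur (-0.18 to 0.065). Why was not tested.

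Between litters the number of members past the threshold was 7, 3 without the filter, 0 without the intensity trend and 0 by the unmoderated test, and the cause was not tested; the other planned settings gave 6 to 8. Leaving out single arrays or litters gave 1 to 8 members. Adamts1 passed in 22 of 24 settings, Timp3 and Adamts10 in 18, Mmp14 in 16, Reck in 15, Mmp23 in 12 and Timp4 in 9 of 23. The number of arrays and the brightness of a probe set over background limit these values.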

Other observations

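Of the 53 pathway genes tested, 21 passed the litter test, where 9.91% of all genes tested did. Among all genes whose mean signal reached 492 the share was 14.3%. A2m, a broad protease inhibitor, had litter means of 13404, 15669, 9512 and 13299 for litters 1 to 4 (limma, adjusted p = 0.00534), highest in litter 2 and lowest in litter 3, as were Adamts10 and Timp4. Adam10, a membrane-bound sheddase, had 1563, 1258, 2197 and 1697 (adjusted p = 0.00659), highest in litter 3 and lowest in litter 2. Acan, the aggrecan gene and main substrate of the aggrecanases, had 28769, 31329.8, 27682 and 21636 (adjusted p = 0.0111), highest in litter 2 and lowest in litter 4, as was Adamts1. These genes were chosen after their values were seen.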
